A study of Mus musculus with 2 samples.

Results

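The genes described here act at broken DNA ends before or in place of homologous recombination: *Trp53bp1* and *Rif1* of the 53BP1 axis, *Xrcc5*, *Xrcc6*, *Prkdc*, *Lig4* and *Xrcc4* of canonical end joining, and *Parp1* and *Polq* of alternative end joining. They were chosen by symbol, and all 9 were found among the 32285 genes of the count tables. Their UMIs (unique molecular identifiers, each marking 1 captured RNA molecule) were summed per library in cell classes defined by marker genes. The data came from single-cell RNA sequencing of testes at postnatal day 7 (PD7), with 1 library from 1 control mouse and 1 library from 1 *Brca1* vKO mouse. The *Brca1* vKO mouse was *Brca1* f/- with *Vasa-Cre*, a transgene that is active in germ cells from the fetal gonocyte stage onward and deletes an internal run of *Brca1* exons. Its somatic cells therefore also carried 1 deleted allele. The genotype of the control mouse beyond that label is not given in the sources used here, and the study loaded more cells from the *Brca1* vKO testes.

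A break in both DNA strands can be rejoined end to end or repaired by copying an intact sister. 53BP1, with RIF1 downstream of it, shields ends from being cut back, while BRCA1 promotes that resection, so that the balance between them steers the choice of repair pathway. In canonical end joining the Ku heterodimer (XRCC5 and XRCC6) binds the ends and recruits the kinase DNA-PKcs (PRKDC), and XRCC4 with ligase IV (LIG4) seals them. Where ends have been cut back, PARP1 and DNA polymerase theta (POLQ) can join them through short stretches of matching sequence, and cells without BRCA1 are known to lean on these proteins.

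The tables held 5812 control and 9456 *Brca1* vKO barcodes with 120568700 and 165062097 UMIs, of which 16 barcodes occurred in both. The study's limits, applied again here, left 5077 control and 8712 *Brca1* vKO cells, and the latter number is not exactly that of the study. Cells were clustered again here, and classes were named from their markers. Each name stands for "like" that cell type, and because the names were rebuilt, class sizes here need not match those of the study. Undifferentiated spermatogonia (*Gfra1* at 274 CPM in control, where CPM is UMIs per 1000000 UMIs of the class) numbered 366 control and 175 *Brca1* vKO cells. Differentiating spermatogonia (*Kit* at 174 CPM and *Stra8* at 413 CPM in control) numbered 166 and 17. A progenitor class (*Sox3* at 74.2 and *Upp1* at 54.1 CPM in control) numbered 35 and 1. *Sox3* was about as high in differentiating spermatogonia (69.9 CPM), *Upp1* was 1.41 times its level in undifferentiated spermatogonia, and neither was among the 10 leading genes of the progenitor class. Germ cell sub-clusters led by Sertoli or stromal genes (66 and 37 control cells) stayed unnamed and were not used. Sertoli cells numbered 2030 and 4162, stromal cells 856 and 1983, and myoid cells 554 and 1414, with 27 to 112 Leydig, pericyte or endothelial cells in each library. Spermatogonia were the deepest cells, with a median of 42897 UMIs per undifferentiated control cell against 18653 per control Sertoli cell. With 1 mouse per genotype there was no test between genotypes. The 95% intervals given with levels (exact Poisson) and ratios (exact conditional) describe counting error and hold nothing on how mice vary. A gene was counted as past the fold where 2 classes or libraries differed by at least 1.5-fold and held at least 50 UMIs of it together. *Dazl*, a germ cell gene, lay at 8.29 CPM in control Sertoli cells and 10.8 CPM in control myoid cells, against 1082 CPM in undifferentiated control spermatogonia. In the 27 control endothelial cells it lay at 62.3 CPM.

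Promoter windows of 250 bases upstream of the annotated start were read from the RefSeq table of GRCm38.p6, which had entries for 7 of the 9 genes (not for *Rif1* and *Prkdc*). They are shown for genes with steep gradients below, *Polq* (across cycling and other cells) and *Parp1* (across germ and somatic cells). Capitals mark a match to the searched words on either strand, which were the E2F words TTTCCCGC, TTTCGCGC, TTTGCCGC and TTTGGCGC, the CCAAT box CCAAT, the NRF1 core GCATGCGC and the CHR word TTTGAA, none of which overlapped in these windows.
*Polq*, chr16:37011536-37011785, plus strand: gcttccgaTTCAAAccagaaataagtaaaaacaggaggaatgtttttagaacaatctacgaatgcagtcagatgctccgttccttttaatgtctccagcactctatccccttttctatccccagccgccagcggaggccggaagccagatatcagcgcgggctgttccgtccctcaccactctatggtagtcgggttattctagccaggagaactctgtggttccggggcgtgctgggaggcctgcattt
*Parp1*, chr1:180568641-180568890, plus strand: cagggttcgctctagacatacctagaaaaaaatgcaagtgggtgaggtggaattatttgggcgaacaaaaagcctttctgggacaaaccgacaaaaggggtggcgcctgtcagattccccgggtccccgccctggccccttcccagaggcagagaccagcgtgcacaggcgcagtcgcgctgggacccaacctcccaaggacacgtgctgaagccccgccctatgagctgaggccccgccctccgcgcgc
The *Polq* window held a CHR word 242 bases before the start, a word found in 16.0% of 32851 windows of this length in the table. The *Parp1* window held none of the words. An E2F word, found in 1.86% of all windows, stood 46 bases before the RefSeq start of *Xrcc6*, in a window whose 250 bases all lie in exons of the GENCODE annotation, downstream of the start of the gene given there. The *Lig4* window at chr8:9977681-9977930 held the NRF1 core (2.26% of all windows), and that of *Xrcc5* held a CCAAT box (33.8% of all windows). A match is a description of letters and not of a binding site.

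Most of the genes were higher in spermatogonia than in somatic cells of the testis. In the control library, 7 of the 9 were at least 1.5-fold higher in undifferentiated spermatogonia than in Sertoli cells, where 39.1% of 15334 genes were higher by that fold. Their median ratio was 2.08, against 1.14 over all genes. Scaled by the median of ratios, which takes out that shift, *Xrcc5* (1.46) and *Lig4* (1.36) were no longer past the fold and *Rif1* (0.609) was past it, lower. In the *Brca1* vKO library, 5 of the 9 were, against 35.4% of genes, with a median of 1.79 against 1.03. In the control library all 9 were past the fold, higher, over stromal cells, where 46.0% of genes were higher and 29.2% lower. All 9 were also higher by the fold over myoid cells, where 50.2% of genes were higher and 26.4% lower. These counts are without the scaling above. The smallest ratios were 2.30 over stromal and 1.71 over myoid cells, both of *Xrcc4*. *Rif1* alone of the 9 was higher in Sertoli cells than in undifferentiated spermatogonia, in both libraries.

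**Figure D1:**
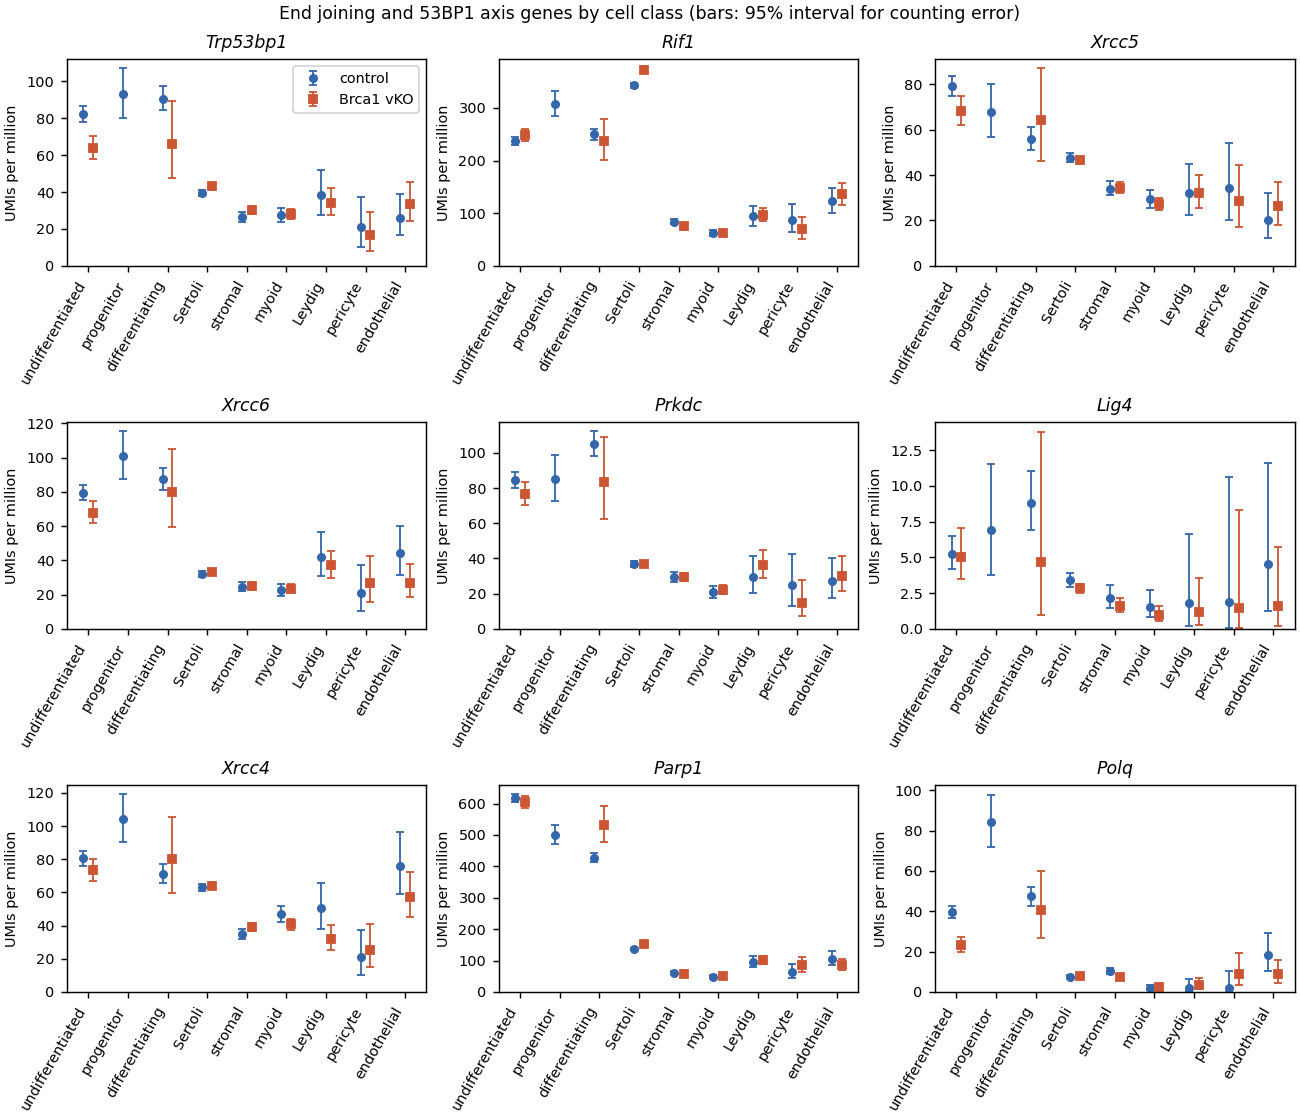
CPM of each of the 9 genes (y axes, linear, from 0) in 9 cell classes (x axes) of the control (circles) and *Brca1* vKO (squares) libraries, with exact 95% Poisson intervals. The progenitor class of the *Brca1* vKO library (1 cell) is left out. *Parp1* and *Polq* stand highest in the spermatogonia, and *Rif1* in Sertoli cells (343 and 373 CPM).

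*Trp53bp1* (ENSMUSG00000043909, chr2:121193281-121271407, minus strand, GRCm38) encodes 53BP1. Its level was 82.3 CPM (95% interval 78.0 to 86.8) in undifferentiated control spermatogonia and 39.6 CPM (95% interval 37.9 to 41.3) in Sertoli cells, a ratio of 2.08 (95% interval 1.94 to 2.23). Stromal cells held 26.4 CPM and myoid cells 27.5 CPM, and the intervals of these neighbours overlapped. The germ cell classes of the control library, at 82.3 to 92.9 CPM, also overlapped with one another. In the *Brca1* vKO library the level was 63.9 CPM in undifferentiated spermatogonia and 43.0 CPM in Sertoli cells, and the ratio of 1.48 (95% interval 1.34 to 1.64) was just short of the fold.

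*Rif1* (ENSMUSG00000036202, chr2:52072832-52122383, plus strand), whose product is brought to ends by 53BP1 and also times replication, had another order of classes. Sertoli cells held 343 CPM (95% interval 338 to 348) in control and 373 CPM (95% interval 369 to 376) in *Brca1* vKO. Undifferentiated spermatogonia held 238 and 249 CPM, ratios to Sertoli cells of 0.693 (0.669 to 0.717) and 0.667 (0.635 to 0.701), both just short of the fold. Stromal cells held 83.3 CPM in control, so that *Rif1* was 4.11 (95% interval 3.88 to 4.37) times as high in Sertoli as in stromal cells. *Rif1* had the largest such ratio of the 9 genes. Of the 9, 4 were past the fold in Sertoli over stromal cells (*Rif1*, *Parp1*, *Xrcc4* and *Lig4*), where 34.6% of genes were. After thinning every cell to 10000 UMIs, 88.7% of undifferentiated control spermatogonia, 90.4% of cells of the larger Sertoli cluster and 45.0% of those of the larger stromal cluster had a *Rif1* UMI (99.7%, 94.3% and 55.0% unthinned).

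The genes of the Ku and DNA-PKcs complex were each higher in spermatogonia. *Xrcc6* (Ku70, ENSMUSG00000022471, chr15:81987835-82040085, plus strand) was at 79.4 CPM (95% interval 75.2 to 83.8) in undifferentiated control spermatogonia and 32.0 CPM in Sertoli cells, a ratio of 2.48 (95% interval 2.31 to 2.67). Its partner *Xrcc5* (Ku80, ENSMUSG00000026187, chr1:72307421-72394952, plus strand) stood at 79.3 and 47.7 CPM, a ratio of 1.66 (95% interval 1.55 to 1.78). The intervals of the 2 ratios did not overlap, so the Ku genes differed in their gradient from germ to Sertoli cells although their products form a pair. *Prkdc* (ENSMUSG00000022672, chr16:15637866-15842235, plus strand, with the processed pseudogene Gm49511 inside it), the kinase recruited by Ku, stood at 84.3 and 36.7 CPM, a ratio of 2.29 (95% interval 2.14 to 2.46). The same ratios in *Brca1* vKO were 2.04 (1.85 to 2.25) for *Xrcc6*, 1.47 (1.33 to 1.62) for *Xrcc5* and 2.06 (1.88 to 2.26) for *Prkdc*, and that of *Xrcc5* was not past the fold.

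Of the ligation genes, *Xrcc4* differed little between germ and Sertoli cells and *Lig4* was sparse. *Xrcc4* (ENSMUSG00000021615, chr13:89774027-90089608, minus strand), the scaffold of the ligase, was at 80.5 CPM (95% interval 76.2 to 84.9) in undifferentiated control spermatogonia and 63.1 CPM in Sertoli cells, a ratio of 1.28 (95% interval 1.20 to 1.36) that was not past the fold. It stood at 35.0 CPM in stromal and 47.0 CPM in myoid cells. *Lig4* (ENSMUSG00000049717, chr8:9969049-9977686, minus strand) had 87 UMIs in undifferentiated control spermatogonia and 184 in Sertoli cells. Its levels of 5.26 CPM (95% interval 4.21 to 6.49) and 3.39 CPM (95% interval 2.92 to 3.92) gave a ratio of 1.55 (95% interval 1.19 to 2.01). The ratios to stromal and myoid cells were 2.43 (1.59 to 3.79) and 3.38 (1.84 to 6.79). The *Lig4* call was lost under scaling by the median of ratios (1.36) and among cells with at most 5% mitochondrial UMIs (1.49). In *Brca1* vKO, where 34 UMIs stood behind the level, the ratio of 1.79 turned to 0.956 (4 UMIs) under the latter limit.

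*Parp1* (ENSMUSG00000026496, chr1:180568924-180601254, plus strand) encodes the main sensor that marks breaks with poly(ADP-ribose). It was at 617 CPM (95% interval 605 to 629) in undifferentiated control spermatogonia, 136 CPM in Sertoli, 61.8 CPM in stromal and 47.9 CPM in myoid cells. The ratios of undifferentiated spermatogonia to these classes were 4.53 (95% interval 4.40 to 4.67) for Sertoli, 9.98 (9.32 to 10.7) for stromal and 12.9 (11.6 to 14.3) for myoid cells. In the *Brca1* vKO library the order was the same, at 604, 152, 57.8 and 49.3 CPM. After thinning to 10000 UMIs, 359 of 362 undifferentiated control spermatogonia (99.2%) had a *Parp1* UMI, as did 70.3% of cells of the larger Sertoli cluster and 38.7% of the larger stromal cluster (all, 85.2% and 50.5% unthinned). *Parp1* was the only one of the 9 among the 2000 variable genes used to cluster all cells, so its gradient across those clusters is in part what formed them. None of the 9 was among those used to cluster the germ cells.

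*Polq* (ENSMUSG00000034206, chr16:37011786-37095417, plus strand), the polymerase of alternative end joining, was at 39.7 CPM (95% interval 36.7 to 42.9) in undifferentiated control spermatogonia and 7.55 CPM in Sertoli cells, a ratio of 5.26 (95% interval 4.64 to 5.96). In stromal cells it was at 10.3 CPM and in myoid cells at 1.95 CPM (15 UMIs). Endothelial cells followed the germ cells at 18.1 CPM in control (16 UMIs), the class with the raised *Dazl* level above, and stood at 8.77 CPM in *Brca1* vKO (11 UMIs). Of the 9 genes, *Polq* had the largest ratio of undifferentiated spermatogonia to Sertoli cells in the control library.

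*Polq* also differed most of the 9 between cycling and other somatic cells. Sertoli and stromal cells each fell into a larger cluster and a smaller one led by replication and mitosis genes such as *Hist1h1b*. Control Sertoli cells held 2.59 CPM (95% interval 2.09 to 3.19) of *Polq* in the larger and 16.4 CPM (95% interval 14.6 to 18.2) in the cycling cluster, a ratio of 6.31 (95% interval 4.98 to 8.06). The *Brca1* vKO levels were 2.15 and 15.4 CPM, a ratio of 7.15 (95% interval 5.91 to 8.71). Control stromal cells held 2.28 and 41.6 CPM, a ratio of 18.2 (95% interval 11.9 to 29.0), and *Brca1* vKO stromal cells held 1.71 and 33.7 CPM, a ratio of 19.8 (95% interval 13.7 to 29.3). The level in cycling stromal cells of the control library overlapped with that in undifferentiated spermatogonia, with a ratio of 0.955 (0.785 to 1.17). After thinning to 10000 UMIs, 2.75% of cells of the larger and 12.1% of the cycling Sertoli cluster had a *Polq* UMI in control, and 2.35% and 29.3% of the stromal clusters, against 29.6% of undifferentiated spermatogonia (4.81%, 35.0%, 2.76%, 45.0% and 67.2% unthinned). In myoid cells the thinned share was 1.25% and the unthinned 2.17%.

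**Figure D2:**
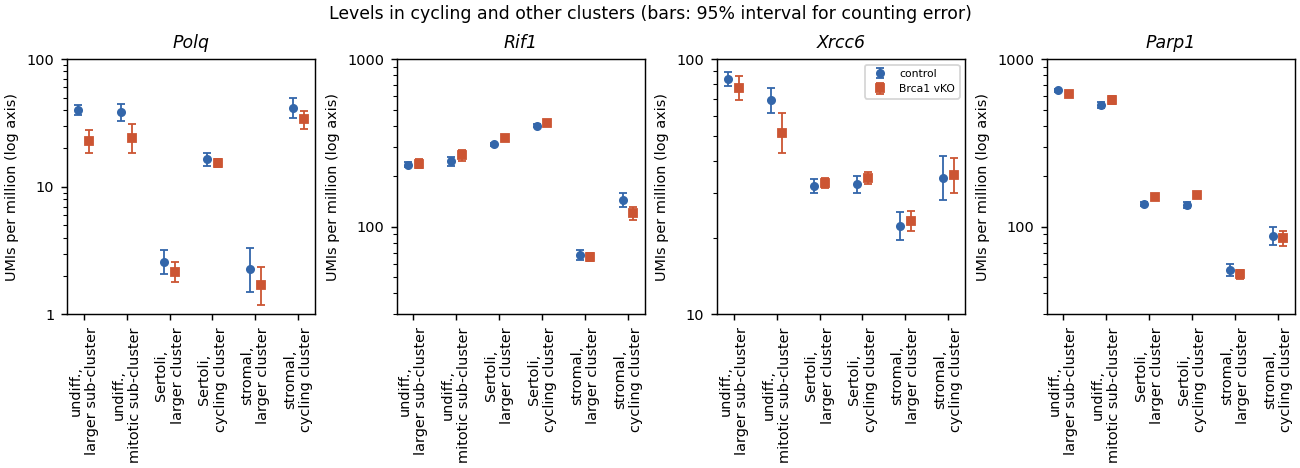
CPM (y axes, log scale) of *Polq*, *Rif1*, *Xrcc6* and *Parp1* for the control (circles) and *Brca1* vKO (squares) libraries, with exact 95% Poisson intervals. Shown are the larger and the mitotic sub-cluster of undifferentiated spermatogonia and the larger and the cycling clusters of Sertoli and stromal cells. *Polq* stands at 1.71 to 2.59 CPM in the larger somatic clusters and at 15.4 to 41.6 CPM in the cycling ones.

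In Sertoli cells *Polq* was the only one of the 9 past the fold in the cycling cluster, in the control library (10.5% of genes were higher by that fold) and in the *Brca1* vKO library (9.31% of genes). The next was *Rif1*, at 311 and 399.7 CPM in control, a ratio of 1.29 (95% interval 1.25 to 1.32). The other 7 had ratios of 0.858 to 1.04. In stromal cells 4 of 8 genes with enough UMIs were past the fold in control, where 16.1% of genes were higher. These were *Polq*, *Rif1* at 2.13 (1.89 to 2.40), *Parp1* at 1.60 (1.37 to 1.85) and *Xrcc6* at 1.55 (1.22 to 1.96). The same 4 genes of the *Brca1* vKO library were past the fold, at 19.8, 1.82, 1.64 and 1.51, where 16.6% of genes were higher. *Trp53bp1*, *Xrcc5*, *Prkdc* and *Xrcc4* were past the fold in neither cycling stromal cluster.

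A split within classes that did not use the clusters gave a like picture. Cells were divided at 728 CPM in 32 cell cycle genes, the median of all retained cells. This is a range of a score and not a cell type, and 161 of 2030 control Sertoli cells lay within 10% of the cut. In control Sertoli cells *Polq* was 10.0 (95% interval 6.68 to 15.7) times as high in the upper as in the lower range, and it was the only one of the 9 past the fold (9.29% of genes were higher). In control stromal cells *Polq*, *Rif1* and *Parp1* were past the fold (12.2% of genes), at 15.6, 2.0 and 1.67, and *Xrcc6* stood at 1.44. Every undifferentiated spermatogonium of both libraries lay above the cut, so no such split could be made in them.

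Among undifferentiated spermatogonia, a mitotic sub-cluster (86 control cells, led by *Ube2c* and *Mki67*) was set against the larger one (280 cells). At a higher clustering resolution, a further sub-cluster led by *Hist1h1b* (61 control cells) stood beside a mitotic one of 87. The larger sub-cluster used here thus held replicating cells, so this comparison does not part cycling from other germ cells. *Polq* did not differ beyond counting error, at 38.5 and 40.2 CPM with a ratio of 0.959 (95% interval 0.802 to 1.14). *Prkdc* was the only one of the 9 past the fold (17.8% of genes were, in either direction), lower in the mitotic sub-cluster at 0.629 (0.548 to 0.719). None was in *Brca1* vKO, and *Prkdc* stood at 1.03 (0.856 to 1.24). The cell cycle genes together were at 3343 CPM in the larger and 6598 CPM in the mitotic control sub-cluster, against 847 CPM in the larger and 5398 CPM in the cycling Sertoli cluster. Set against cycling Sertoli cells alone, 7 of the 9 genes were still past the fold in undifferentiated control spermatogonia (38.0% of genes were higher), with *Parp1* at 4.56 and *Polq* at 2.43, and *Rif1* was lower at 0.595.

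Within the germ line of the control library, 1 of the 9 genes was past the fold in each of the progenitor and differentiating classes over undifferentiated spermatogonia. In the progenitor class *Polq* stood at 84.0 CPM (95% interval 71.9 to 97.6), which was 2.12 (95% interval 1.78 to 2.51) times its level in undifferentiated spermatogonia. It was the only one of the 9 past the fold there, where 24.7% of genes were in either direction. Of 33 progenitor cells thinned to 10000 UMIs, 24 (72.7%) had a *Polq* UMI (94.3% of 35 unthinned). The class rests on few cells of 1 library, and no progenitor sub-cluster formed when the libraries were clustered without batch correction. In differentiating spermatogonia *Polq* stood at 47.4 CPM, a ratio of 0.563 (0.470 to 0.678) to the progenitor class.

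*Parp1* had its highest level in undifferentiated spermatogonia, with 617 CPM there, 501 CPM in the progenitor class and 427 CPM in differentiating spermatogonia, and no neighbours in this order overlapped. The last ratio, 0.693 (95% interval 0.667 to 0.720), was just short of the fold. *Xrcc5* had the same order, but both pairs of neighbours had overlapping intervals. Its ratio in differentiating over undifferentiated spermatogonia was 0.705 (0.633 to 0.784), while its partner *Xrcc6* stood at 1.10 (1.01 to 1.21). *Prkdc* was higher in differentiating spermatogonia at 1.25 (1.14 to 1.36), short of the fold. *Lig4*, at 8.78 CPM (74 UMIs) and a ratio of 1.67 (95% interval 1.21 to 2.30), was the only one of the 9 past the fold between differentiating and undifferentiated spermatogonia, where 34.5% of genes were in either direction. That call was lost with classes drawn from marker pairs (ratio 1.26), as a mean over cells (1.41) and against *Gfra1* cells without a progenitor marker UMI (1.49). A small sub-cluster of 22 differentiating control cells led by *Esx1* and *Meioc*, a meiotic gene, was set against the other 144. The small sub-cluster was shallower, with a median of 28968 UMIs per cell against 54004.5. *Xrcc5* at 0.474 (20 UMIs), *Xrcc4* at 0.565 (30 UMIs) and *Lig4* at 0.611 (4 UMIs) were past the fold there, all lower. *Polq* stood at 1.46. In that comparison 37.2% of genes were past the fold in either direction.

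**Figure D3:**
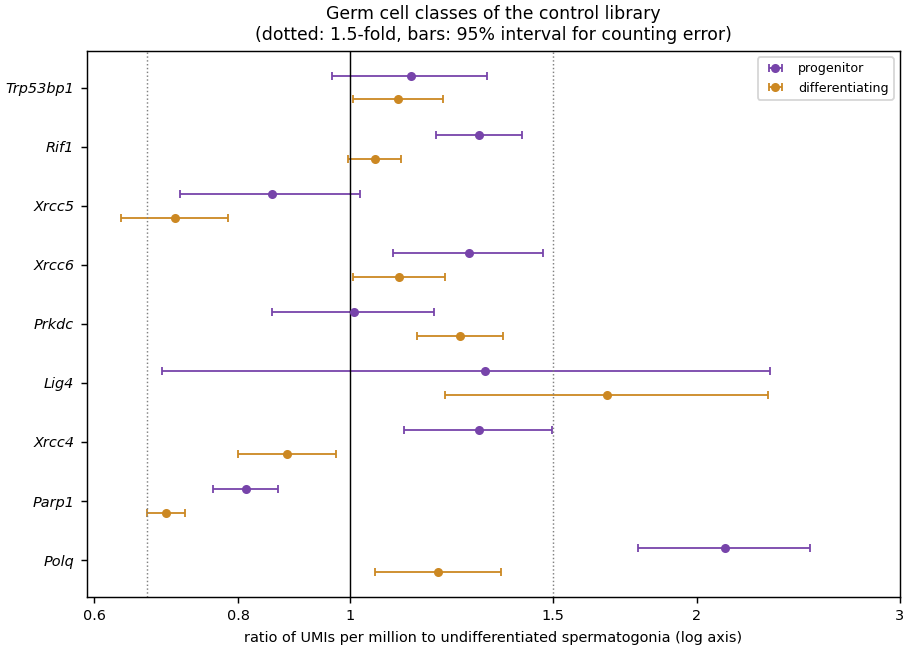
Ratios of CPM (x axis, log scale) in progenitor and differentiating spermatogonia over undifferentiated spermatogonia of the control library for the 9 genes, with exact 95% intervals and dotted lines at 1.5-fold. *Polq* in the progenitor class (2.12) and *Lig4* in the differentiating class (1.67) lie past the line.

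Between the libraries, *Polq* was lower in *Brca1* vKO undifferentiated spermatogonia, at 23.2 CPM (95% interval 19.7 to 27.1) from 156 UMIs against 39.7 CPM (95% interval 36.7 to 42.9) from 657 UMIs in control, a ratio of 0.584 (95% interval 0.487 to 0.696). It was the only one of the 9 past the fold, where 22.0% of 13056 genes were in either direction. The median over the 9 genes was 0.908, against 0.984 over all genes. In the larger sub-cluster the *Polq* ratio was 0.565 (0.450 to 0.704) and in the mitotic sub-cluster 0.625 (0.456 to 0.846). After thinning to 10000 UMIs, 29.6% of 362 control cells (exact binomial 95% interval 24.9% to 34.6%) and 24.3% of 173 *Brca1* vKO cells (18.1% to 31.4%) had a *Polq* UMI, so that the shares of cells overlapped (67.2% and 52.6% unthinned). Thinned to 2000 UMIs, 25 and 4 *Polq* UMIs were left in the 2 libraries, and the ratio was 0.337.

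The make-up of this class moved with the *Polq* difference. *Sox3* and *Upp1*, genes of progenitor spermatogonia, stood at 30.5 and 38.3 CPM in control and at 7.58 and 4.61 CPM in *Brca1* vKO. *Gfra1* stood at 274 and 367 CPM and *Kit* at 9.97 and 38.5 CPM. Of 366 control cells, 256 had a UMI of *Sox3*, *Neurog3* or *Upp1*, as did 48 of 175 *Brca1* vKO cells. Within the control library, cells with such a UMI held 1.29 (95% interval 1.07 to 1.57) times the *Polq* of cells without. Among cells with a *Gfra1* UMI and none of those 3 genes, 108 in control and 126 in *Brca1* vKO, the *Polq* ratio between libraries was 0.675 (95% interval 0.519 to 0.876). This was just short of the fold, and the interval still excluded 1. These cells still differed in make-up, with *Kit* at 39.7 CPM in *Brca1* vKO against 13.6 CPM and *Gfra1* at 357 against 479 CPM. None of the 9 was past the fold between these cells, where 15.3% of genes were in either direction, but the intervals of 6 of the 9 excluded 1. With no need for a *Gfra1* UMI, the *Polq* ratio was just past the fold. The cell cycle genes together were higher in *Brca1* vKO undifferentiated spermatogonia, at 5282 CPM against 4242 CPM. The part of cell make-up in the *Polq* difference was not tested further.

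*Trp53bp1* came next, at 63.9 CPM against 82.3 CPM, a ratio of 0.777 (95% interval 0.695 to 0.866) that was short of the fold. It was 0.779 (0.682 to 0.888) in the larger sub-cluster, 0.813 (0.661 to 0.995) in the mitotic one and 0.681 (0.581 to 0.798) in the *Gfra1* cells just described. *Xrcc5* at 0.861 (0.772 to 0.958) and *Xrcc6* at 0.856 (0.767 to 0.952) were also lower by more than counting error, within the fold. *Prkdc* stood at 0.908 (0.819 to 1.01) in the class as a whole, but its sub-clusters went opposite ways, with 0.806 (0.711 to 0.913) in the larger and 1.32 (1.09 to 1.60) in the mitotic one. The intervals of *Rif1* (1.05), *Parp1* (0.979), *Xrcc4* (0.912) and *Lig4* (0.961) held 1. The interval of *Parp1*, 0.943 to 1.01, was the narrowest, from 10210 and 4062 UMIs.

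In the 3 large somatic classes no gene was past the fold, with 0 of 9 in Sertoli cells (6.23% of genes in either direction), 0 of 9 in stromal cells (5.1% of genes) and 0 of the 8 with enough UMIs in myoid cells (5.83% of genes). In Sertoli cells *Parp1* was at 152 CPM in *Brca1* vKO against 136 CPM, a ratio of 1.12 (95% interval 1.09 to 1.15). *Rif1* and *Trp53bp1* stood at 1.09 (1.07 to 1.11) and 1.09 (1.03 to 1.15). *Trp53bp1* was thus slightly higher in *Brca1* vKO Sertoli and stromal cells and lower in undifferentiated spermatogonia, with 1.14 (1.01 to 1.30) in stromal cells. *Polq* was at 7.34 CPM against 10.3 CPM in stromal cells, a ratio of 0.715 (95% interval 0.573 to 0.893). Cycling cells made up 247 of 1983 *Brca1* vKO and 131 of 856 control stromal cells. The *Polq* ratio was 0.811 (0.634 to 1.04) within the cycling cluster. In the larger stromal cluster it was 0.748, from 36 UMIs in *Brca1* vKO and 26 in control. The part of the cycling share in the stromal *Polq* difference was not tested. In Sertoli cells *Polq* stood at 1.01 (0.899 to 1.15). The small somatic classes held calls from few cells. *Xrcc4* was the 1 of 7 tested genes past the fold in Leydig cells (14.5% of genes in either direction), at 80 UMIs in *Brca1* vKO and 55 in control and a ratio of 0.638 (0.447 to 0.916). *Xrcc6* was the 1 of 7 in endothelial cells (13.1% of genes), at 34 and 39 UMIs and 0.614 (0.376 to 0.998). The 17 differentiating *Brca1* vKO cells, which held 179 CPM of *Gfra1* against 5.82 CPM in control and so were not of the same make-up, had *Polq* at 40.8 CPM (26 UMIs) and *Parp1* at 532 CPM. *Lig4* was the 1 of 9 past the fold against control there, lower at 0.537 from 3 and 74 UMIs (31.7% of genes in either direction). Over undifferentiated spermatogonia of the *Brca1* vKO library, *Polq* at 1.76 was the 1 of 8 tested genes past the fold (24.3% of genes in either direction).

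**Figure D4:**
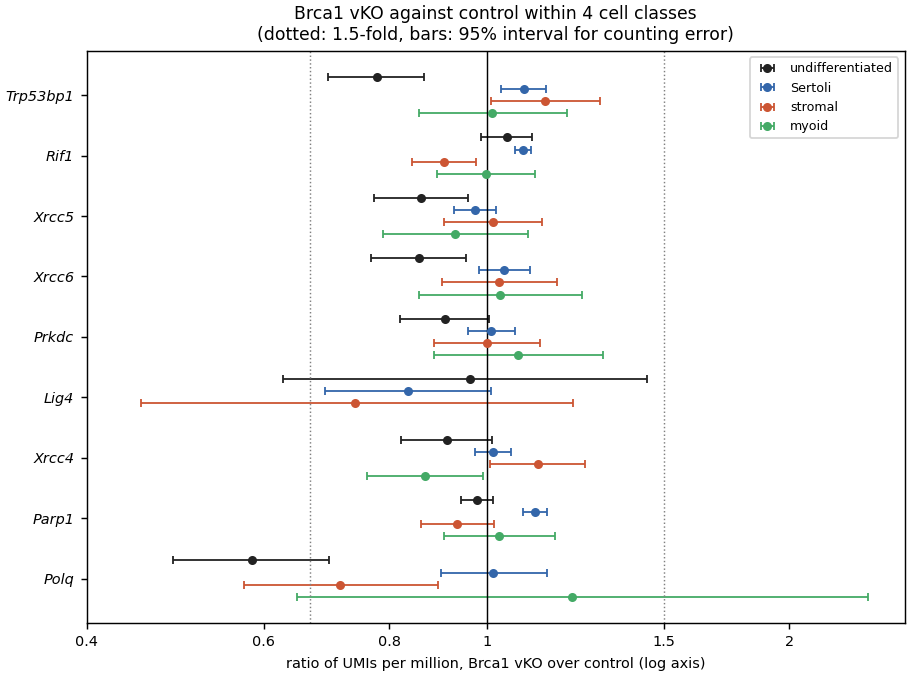
Ratios of CPM, *Brca1* vKO over control (x axis, log scale), for the 9 genes in undifferentiated spermatogonia, Sertoli, stromal and myoid cells, with exact 95% intervals and dotted lines at 1.5-fold. *Lig4* in myoid cells is left out for want of UMIs. *Polq* in undifferentiated spermatogonia (0.584) is the point past the line.

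*Brca1* itself stood at 66.2 CPM in control and 43.9 CPM in *Brca1* vKO undifferentiated spermatogonia, a ratio of 0.662 (0.580 to 0.754). It was also lower in somatic cells, at 12.4 against 23.5 CPM in stromal cells (0.529, 0.452 to 0.618), and stood at 0.864 (0.812 to 0.919) in Sertoli cells. In cycling stromal cells the ratio was 0.563 (0.475 to 0.667). The count tables do not show where in the gene these UMIs lie, so they do not check the deletion.

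Other genes of these pathways were described from hand-written lists. Of 10 genes of end resection, the step that 53BP1 opposes, 9 were past the fold in undifferentiated spermatogonia over Sertoli cells of the control library, with a median ratio of 2.71. Over all genes 39.1% were higher and 31.8% lower in this comparison, with a median of 1.14, and the counts of the other lists stand beside the same shares. *Brca2*, a gene of homologous recombination, was at 108 and 38.7 CPM and *Blm*, a helicase, at 103 and 39.0 CPM, while *Wrn*, another helicase, was at 39.2 and 49.5 CPM. Of 10 tested genes of alternative end joining and PARP activity, 6 were higher and none lower, with a median of 1.87. *Rad50*, of the complex that starts resection, stood at 222 and 69.0 CPM, and *Parg*, which removes poly(ADP-ribose), at 143 and 68.3 CPM. Of 10 genes listed here as effectors of 53BP1, 1 was higher and 5 lower, with a median of 0.740. *Dclre1c*, the Artemis nuclease, was at 11.4 CPM in spermatogonia and 42.6 CPM in Sertoli cells. Of 8 genes that act on 53BP1 or its recruitment, 2 were higher and 2 lower (median 1.15), with *Atm*, the kinase that signals breaks, at 98.2 and 28.4 CPM and *Dynll1*, a binding partner of 53BP1, at 922 and 731 CPM. Of 9 tested further genes of canonical end joining, 4 were higher and 2 lower (median 1.48), among them *Aplf*, a scaffold factor, at 43.6 and 9.69 CPM and *Tdp2*, which clears blocked ends, with a ratio of 2.37.

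Between the libraries, few genes of the lists differed by the fold in undifferentiated spermatogonia. No gene of the recruitment, canonical or alternative lists was past the fold, 1 effector was higher and 1 lower, and 2 resection genes were lower. The 2 resection genes were *Wrn* and *Brca1*, the targeted gene (0.662). Over all genes 8.81% were higher and 13.2% lower. List medians lay from 1.01 to 1.19, against 0.984 over all genes. *Shld2*, a shieldin subunit that acts downstream of RIF1, stood at 35.1 CPM in *Brca1* vKO and 21.7 CPM in control, a ratio of 1.62 (1.37 to 1.91). *Paxip1* and *Ten1*, the effectors with the most UMIs, stood at 1.39 and 1.07. *Nhej1* (XLF), a partner of XRCC4, stood at 34.8 and 23.9 CPM, a ratio of 1.45 (1.23 to 1.71), and *Poll* at 1.49 from 69 UMIs in all. *Dclre1c* was lower, at 6.24 and 11.4 CPM with a ratio of 0.547 (0.382 to 0.767), and so was *Wrn*, at 22.6 and 39.2 CPM with a ratio of 0.576 (0.480 to 0.688).

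In cycling stromal cells of the control library all 10 resection genes were past the fold over the larger cluster, with a median of 17.7, where 16.1% of all genes were higher. In cycling Sertoli cells 9 of 10 were, with a median of 4.05, where 10.5% of all genes were higher. *Polq* stood at 18.2 and 6.31 in the same comparisons. Of the further canonical genes, 2 of 8 tested were higher in cycling stromal cells and 0 of 9 in cycling Sertoli cells.

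Likeness of pattern was measured as Pearson's r of log2(CPM + 10) over 23 points, which were the clusters of the named classes in each library, among 13590 other genes with at least 200 UMIs in each library. The points share libraries and differ in depth, so r is given as a description. *Polq* was most like *Mybl2* (0.978), a cell cycle transcription factor, and *Ssrp1* (0.956), a histone chaperone subunit. *Parp1* was most like *Txnl4a* and *Alkbh2* (both 0.986), and *Rif1* like *Rfwd3* (0.987) and *Cbfb* (0.961). *Xrcc6* was most like *Rad50* (0.962) and *Letm1* (0.960), *Xrcc5* like *Rpap2* (0.970) and 2810004N23Rik (0.953), and *Prkdc* like *Mycbp* and *Atp23* (both 0.966). *Trp53bp1* was like Gm2694 (0.965), *Lig4* like *Lcor* (0.961) and *Pias4* (0.95), and *Xrcc4* like *Mbtd1* (0.920) and *Brwd1* (0.906). Among the 9 themselves, *Trp53bp1* and *Prkdc* were the most alike (0.953) and *Rif1* and *Polq* among the least (0.540). *Xrcc5* and *Xrcc6* had an r of 0.762.

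A group of 410 control and 55 *Brca1* vKO cells carried germ cell genes (*Dazl* at 1375 CPM in control) but few UMIs, with a median of 3466 per control cell, and was left out of the classes above. It also held *Hba-a1*, a haemoglobin gene, at 2385 CPM against 91.6 CPM in undifferentiated spermatogonia. The 9 genes differed widely there. *Xrcc6* stood at 0.928 (95% interval 0.781 to 1.10) and *Parp1* at 0.779 (0.730 to 0.831) of their level in undifferentiated control spermatogonia, and *Xrcc5* at 0.691 (0.567 to 0.836). *Trp53bp1* at 0.465 (0.367 to 0.582), *Rif1* at 0.344 (0.294 to 0.401), *Xrcc4* at 0.264 (0.192 to 0.356) and *Prkdc* at 0.235 (0.169 to 0.320) were lower. *Polq* was at 0.0476 (0.0129 to 0.122), from 4 UMIs. In all, 6 of the 9 were past the fold and lower, where 46.5% of genes were, and the median of the 9 was 0.449 against 0.718 over all genes.

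A like group of 322 control cells with Sertoli genes had a median of 3605 UMIs and *Hba-a1* at 4374 CPM. Against control Sertoli cells, 7 of the 9 were lower there (47.9% of genes were). *Xrcc6* at 0.909 (0.650 to 1.24) and *Parp1* at 0.959 (0.824 to 1.11) again stood nearest to 1, and *Prkdc* at 0.213 (0.106 to 0.381), *Rif1* at 0.253 (0.210 to 0.302) and *Trp53bp1* at 0.269 (0.150 to 0.445) were lower. As annotated, *Prkdc* spans 204 kb, *Xrcc4* 316 kb, *Polq* 83.6 kb, *Trp53bp1* 78.1 kb and *Rif1* 49.6 kb, against 52.3 kb for *Xrcc6*, 32.3 kb for *Parp1* and 87.5 kb for *Xrcc5*. *Lig4*, past the fold and lower in both groups from 5 and 3 UMIs, is the shortest at 8.64 kb, with 5.2 kb of exons. The total exon lengths of the other 8, in the order given, are 13.2, 4.21, 9.69, 14.2 and 10.5 kb, against 4.48, 5.29 and 2.56 kb. The part of depth, haemoglobin RNA or transcript length in these ratios was not tested.

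**Figure D5:**
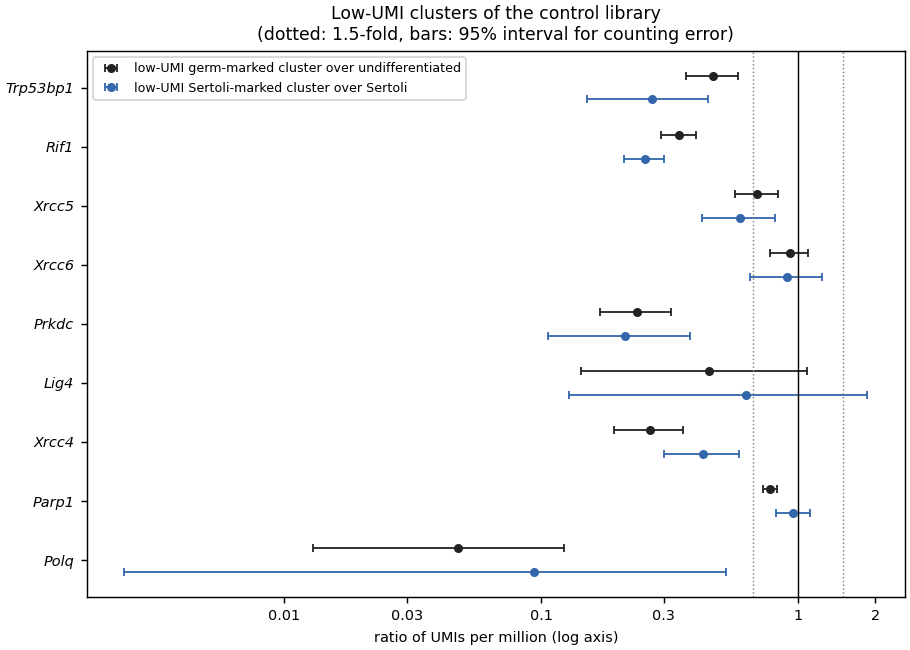
Ratios of CPM (x axis, log scale) in the low-UMI germ-marked cluster over undifferentiated spermatogonia, and in the low-UMI Sertoli-marked cluster over Sertoli cells, for the 9 genes in the control library, with exact 95% intervals and dotted lines at 1.5-fold. *Xrcc6* and *Parp1* lie nearest to 1 in both, from 0.779 to 0.959, and *Polq* lies lowest in both.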

How the data were processed

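Testes of 1 control and 1 *Brca1* vKO mouse at PD7 were profiled by 10x Genomics scRNA-seq. The authors aligned reads to mm10 with Cell Ranger 6.0.2, and the deposited tables hold raw UMI counts per gene and barcode, before the filter on cells. The study's limits on cells were applied again here (750 detected genes or more, mitochondrial UMIs of 10% or less). Normalization, 2000 variable genes and 20 principal components came from Seurat 5.3.0 (R 4.3.3), followed by Harmony's algorithm rewritten for this work and Louvain clustering at 0.25 (germ cells 0.2). Clusters were named from markers at a minimum score of 0.5. Shallow clusters led by none of their own markers were given no name. One germ cell joined to a neutrophil was left out, a choice made after seeing the data. Scrublet marked 3.17% and 2.86% of cells as doublets, which were removed only in an alternative. UMIs were summed per class and library, and levels, ratios and intervals were computed with scipy 1.17.1. The code was tested on simulated data. Gene positions came from GENCODE vM21 (GRCm38), another release than the authors'. The 9 genes and all lists were chosen with earlier results of these data known. Beside the 9, genes named were the pathway genes with the 3 largest and 3 smallest ratios between libraries and the 2 of each list with the most UMIs, markers, *Brca1*, and the 2 genes most like each of the 9, of which 1 is not reported here.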

Additional observations from a re-analysis of the deposited data

How the results depend on the processing

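With 1 mouse per genotype, no result has a check between mice. No paired analysis was possible because each group holds 1 library and no result comes from a test. Of 99 counts of genes past the fold under alternatives, 84 stayed within 1.5 times the reported count. For *Brca1* vKO over control undifferentiated spermatogonia, the count of 1 became 0 at a fold of 2, after thinning to 2000 UMIs (too few *Polq* UMIs) and in cells with a *Gfra1* but no progenitor marker UMI. That alternative, and the one with no progenitor marker UMI alone (*Polq* 0.666), were added after seeing the data. For stromal cells the count of 0 became 1 with classes from marker pairs (*Polq*, 0.657), as a mean over cells (*Polq*, 0.659) and after thinning (*Xrcc4*, 1.59). For differentiating over undifferentiated control spermatogonia the count of 1 became 0 under the 5% mitochondrial limit, marker pairs, a fold of 2 and a minimum of 200 UMIs, 2 under median-of-ratios scaling, after thinning and in *Gfra1* cells without progenitor markers, and 3 without progenitor markers alone. For the upper cell cycle range of Sertoli cells it became 0 after thinning (*Polq* at 11.3 from 24 and 2 UMIs). *Lig4* reversed in *Brca1* vKO undifferentiated spermatogonia over Sertoli cells under the 5% limit (0.956 from 4 and 195 UMIs) and after thinning (0.956 from 1 and 25), and in differentiating over undifferentiated control spermatogonia after thinning (0 from 0 and 6 UMIs). Of 765 single ratios under alternatives, 654 stayed within the reported interval and 108 moved outside it without reversing. Depth limits *Lig4* everywhere and *Polq* in non-cycling somatic cells.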
